A study of Mus musculus with 2 samples.

Results

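The genes described here encode plasma proteins that yolk sac or gut endoderm is known to make. These are Apoa1, Apoc3 and Apoa4, which encode apolipoproteins, and the genes of albumin (Alb), alpha-fetoprotein (Afp) and transthyretin (Ttr). They were selected by position, as every row of the deposited expression table whose locus overlaps one of 3 regions of the mouse genome (mm9): 46034000 to 46052000 on chromosome 9, 90888000 to 90938000 on chromosome 5, and 20823000 to 20833000 on chromosome 18. The regions hold 7 transcripts at 6 loci, of 55418 transcripts at 24214 loci in all. The table prints no gene symbol in any row, so the names are those given to the regions. Within a region the names were assigned to the loci so that the summed difference between locus spans and the spans of the genes in RefSeq (GRCm38.p6) was smallest.

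The data came from mouse embryos of embryonic day 9.5, with 21 to 25 somites, on a C57BL/6 background. They carried the mTmG reporter, which makes every cell red by a membrane protein until Cre recombinase turns it green, and Grhl3-cre, which expresses Cre where the epithelial transcription factor gene Grhl3 is active. The neural tube was freed of other tissue by dissection, and live single cells were sorted into a GFP-positive pool, labelled non-neural ectoderm, and an RFP-positive pool, labelled as the neural tube cells that remained. Cells that had not recombined, of whatever type, would sort as red. RNA from 25 embryos was pooled and each pool gave 1 library, so the p-values, errors and intervals below concern 2 libraries and have no replicate check. The table names its conditions q1 and q2, which match neither label. A negative fold change is read here as lower in q2 than in q1, and which pool that is cannot be said.

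In the mouse embryo such plasma proteins come from the visceral endoderm of the yolk sac, from the liver bud that grows out of the gut endoderm, or from both. Afp and Alb are neighbouring genes of one family, Afp being the main fetal and Alb the main adult carrier protein of plasma. Apoa1, Apoc3 and Apoa4 lie side by side in a cluster of lipoprotein genes, and Ttr carries thyroid hormone and, with its partner protein, retinol. They are not textbook products of the neural tube or the surface ectoderm, although Ttr is a marker of the choroid plexus later in development. In bulk RNA, fewer cells of a type and less RNA per cell cannot be told apart.

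None of the 7 transcripts was called different between the conditions in the authors' deposited table, where 0.803% of the 29405 tested transcripts were (0.690% positive and 0.112% negative). Only the Apoa1 transcript was tested. The other 6 were marked as not tested, the status that Cuffdiff, the program used, gives where it finds too few reads to test. Ratios and p-values are listed for untested transcripts too, and are given below as such. Among all transcripts 45.9% were marked in this way, and 55.3% of loci had at least 1 tested transcript. With 1 tested member, the absence of calls says little about the rest of the group. By the authors' deposited table, the unadjusted p-value of each of the 7 was 0.236 or more, whatever the status.

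Apoa1 encodes the main protein of high-density lipoprotein. Its locus was on chromosome 9 from 46036712 to 46038549 of mm9, and its transcript (uc009phb.2) was the only one listed there. The span of 1837 bases was near the 1840 of RefSeq. Its log2 fold change was -0.03 according to the authors' deposited table, a ratio of 0.981 of q2 to q1. The error of this value, taken as its size divided by that of its test statistic, was 0.83 log2 units. In the authors' deposited table its p-value was 0.973 and its q-value 1.00. The 95% interval of the log2 fold change ran from -1.66 to 1.61, so that it covered up to 3.04-fold higher and up to 3.17-fold lower in q2. The point estimate was thus near equality, with room for a difference of about 3-fold either way.

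Most differences called elsewhere lay beyond this interval, which the call itself partly fixes, since only differences large beside their error are called. Of the 201 finite positive calls, 190 lay above its upper end, and of the 29 finite negative calls, 28 lay below its lower end. The median of the finite positive calls was 2.88 in the authors' deposited table. Among the 3646 tested transcripts with an error between 0.7 and 1.0, a range that includes the error of Apoa1, 30 were called. The smallest difference called among them was 5.89-fold, and a smaller one would probably have gone uncalled at Apoa1. Because 5.89-fold is the minimum over this range of errors, larger differences could also have gone uncalled there. The limit at the error of Apoa1 itself was not determined.

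**Figure D1:**
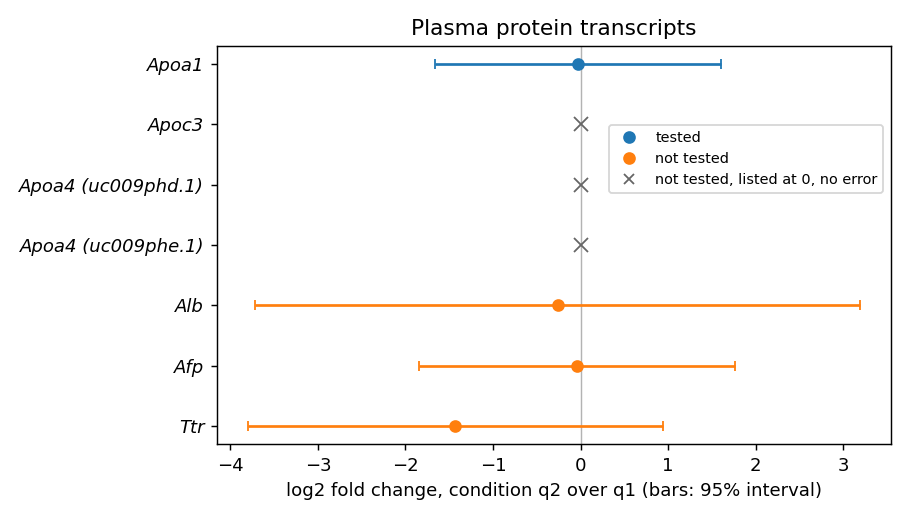
Log2 fold change of condition q2 over condition q1 for the 7 transcripts (horizontal axis), with 95% intervals from the error of each value; 1 library in each condition. Every interval drawn crosses 0, and the 3 crosses mark transcripts of Apoc3 and Apoa4 that the table lists at 0 with no error.

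Apoc3 encodes a small apolipoprotein that slows the clearance of triglyceride-rich particles, and Apoa4 one that intestinal cells add to chylomicrons. The Apoc3 locus ran from 46041133 to 46043380 on chromosome 9, and the Apoa4 locus, which lists 2 transcripts (uc009phd.1 and uc009phe.1), from 46048926 to 46051612. Their spans were 2247 and 2686 bases, against 2587 and 2615 in RefSeq. All 3 transcripts were marked as not tested in the authors' deposited table, with a log2 fold change of 0, a test statistic of 0 and a p-value of 1. Such an entry was common among untested transcripts, at 15280 of 25431, or 60.1%, and occurred in 0 tested ones. It carries no error and is not an estimate of equal expression. The 3 neighbouring apolipoprotein genes therefore divided into 1 that was tested and 2 that had no measured ratio. The Apoc3 and Apoa4 entries were alike, so an exchange of these names would alter no fold change, status or p-value.

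Alb, at 90889914 to 90905629 on chromosome 5, stood at -0.26 on the log2 scale in the authors' deposited table, with an error of 1.76. Its p-value in the authors' deposited table was 0.882. The 95% interval, from -3.72 to 3.19, was the widest of the members and covered 9.13-fold higher and 13.1-fold lower in q2. Of the finite calls, 55 of the 201 positive and 0 of the 29 negative ones lay beyond it, so a difference of the size of most calls would lie within the interval at Alb.

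Afp, at 90919739 to 90937933 on the same chromosome, had a listed ratio closer to equality than that of Alb, and a smaller error. The authors' deposited table listed Afp at a log2 fold change of -0.04 and a p-value of 0.965, and the error came to 0.92. The 95% interval ran from -1.84 to 1.76, or from 3.58-fold lower to 3.39-fold higher in q2. This interval was nearly that of Apoa1, and 181 of the finite positive and 26 of the finite negative calls lay beyond it. Alb, Afp and Ttr were not tested by the authors, a status given for too few reads. Their intervals therefore call for more caution than that of Apoa1. The Afp locus had exactly the RefSeq span of 18194 bases.

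Ttr, also not tested, had the largest difference of the members. Its locus ran from 20823750 to 20832827 on chromosome 18, and the authors' deposited table listed it at -1.43 on the log2 scale, or 2.70-fold lower in q2. The error was 1.21, and the p-value was 0.236 in the authors' deposited table. The 95% interval, from -3.80 to 0.94, included equality, so the lower value in q2 was not distinguishable from no difference. On the positive side the interval ended at 1.92-fold, lower than each of the 201 finite positive calls, and 0 of the 29 negative calls lay below its lower end. The locus spanned 9077 bases in the file and the gene spans 10118 bases in RefSeq.

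The 4 members with an estimated ratio, Apoa1, Alb, Afp and Ttr, were all negative, with a median log2 fold change of -0.15. Over all 33838 transcripts with such an estimate the median was 0.0035 and 49.4% were negative. The shared sign of the members was not tested, and it is not read here as a shift of the group. For 3 of the 4, all but Ttr, the difference was smaller than its own error, which was so for 90.7% of all 33838. Their errors, from 0.83 to 1.76, were below the median of 4.28 over the 5698 untested transcripts that have one, and for Apoa1 also below the median of 0.89 over the tested ones. A size of 2-fold or more was reached by 13.4% of the 28140 tested transcripts with a finite value (5.70% on the negative side) and not by Apoa1, the tested member. Among members of any status, Ttr alone passed 2-fold.

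**Figure D2:**
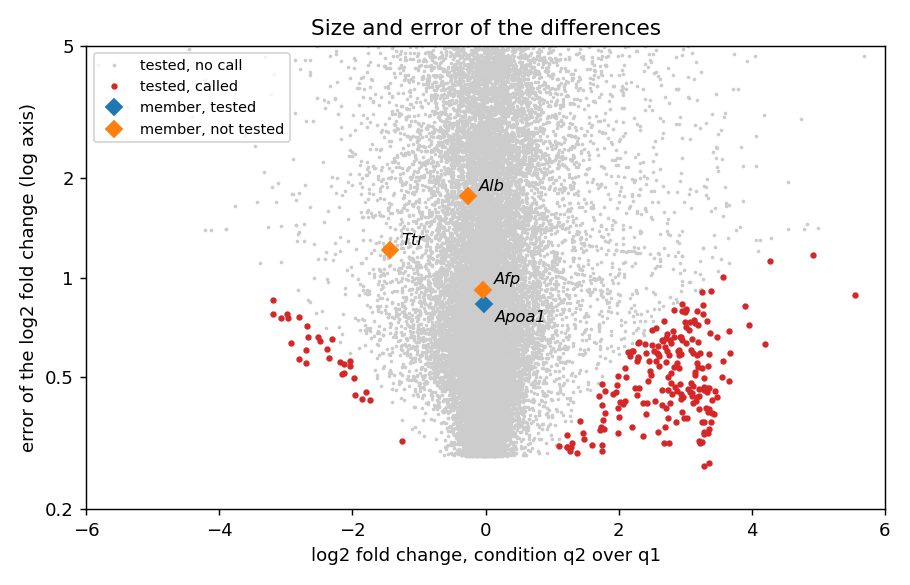
Error of the log2 fold change (vertical log axis) against the log2 fold change of condition q2 over q1 for tested transcripts (grey), calls of the authors (red) and the 4 members with an estimate (diamonds). Of 28140 values, 4289 with an error above 5 or a size above 6 lie outside the axes, 0 of them called. Apoa1 and Afp sit near 0 and Ttr at -1.43, and of these only Apoa1 was tested and could have been called.

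The loci around the members showed no calls either. Within 200 kb of the 3 regions lay 31 other transcripts at 13 loci, of which 16 transcripts at 7 loci were tested and 0 were called. Around the apolipoprotein cluster the 4 tested transcripts lay between -0.21 and 0.23 in the authors' deposited table, and Apoa1 fell within that range. Around Alb and Afp the 7 tested transcripts all belonged to 1 locus and lay between -0.43 and 0.94 in the authors' deposited table. The value of 0.94 had an error of 14.1. Around Ttr the 5 tested transcripts belonged to 3 loci and lay between -0.87 and 2.29 in the authors' deposited table. Untested transcripts with an estimate there stood at -0.26 and -1.38, with errors of 1.17 and 9.42. The value of -0.87 had the lowest p-value among all 16, at 0.107 unadjusted in the authors' deposited table, and the value of 2.29 had an error of 10.2.

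**Figure D3:**
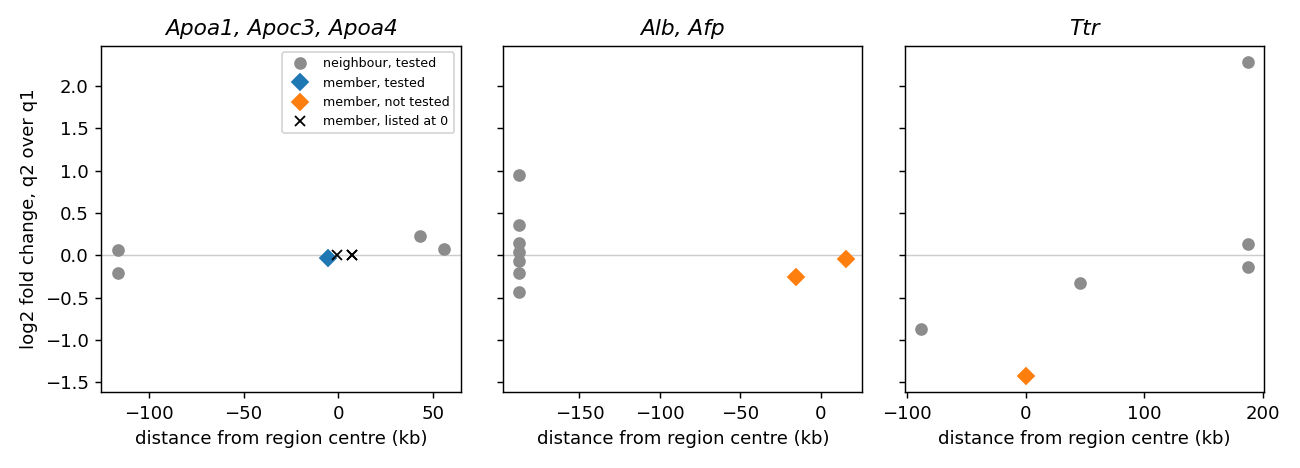
Log2 fold change of condition q2 over q1 against distance in kb from the centre of each region, for the members (diamonds and crosses) and the tested transcripts within 200 kb (grey circles). Tested neighbours of the apolipoprotein cluster lie between -0.21 and 0.23. Ttr, itself not tested, lies below each of its 5 tested neighbours, which belong to 3 loci.

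Each cluster was followed by a locus whose span matched the next gene of its family in RefSeq to within 2 bases. These names were looked up after the values had been seen. The locus on chromosome 9 from 46076690 to 46080002 matched Apoa5, a further apolipoprotein that lowers plasma triglyceride. The 2 transcripts there were not tested. Both were listed with a log2 fold change standing for minus infinity, which as read here means a value of 0 in q2. Their p-values were 0.138 and 0.497 in the authors' deposited table. The locus on chromosome 5 from 90947974 to 90982570 matched Afm, afamin, a vitamin E carrier of the albumin family. Of its 2 untested transcripts, 1 was listed at 0, as Apoc3 and Apoa4 were. The other was listed at minus infinity like those of Apoa5, with a p-value of 0.220 in the authors' deposited table.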

How the data were processed

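The table holds 1 comparison of 2 pools, with 1 library each. The submitters' processing notes name mm9, TopHat 1.3.2, Cufflinks 2.0.2 and Cuffdiff. For the annotation and Cuffdiff's version and settings, nothing is stated in the sources at hand. The authors deposited, per transcript, a log2 fold change of q2 over q1 (placeholders mark ratios against 0), a test statistic, which is a score, a p-value, a q-value, a status and a call. The 2 columns of values per condition match no sample's label and were not used, so levels and library depth are unknown here, and no counting interval is given.

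Members and lists were chosen with earlier results of these data known. The rule for named genes was all 6 members. The planned lists of other endoderm genes and of cell type markers were not run, apart from the members themselves and Apoa5, which lies beside a member region: rows carry no names, no mm9 position was given for those genes, and a span without a position was not taken to name a row. The members' names rest on the given regions with spans, and those of Apoa5 and Afm on their place beside a region with spans. As a result the labelled cell types were not checked against markers. An error is the size of the log2 fold change over that of its test statistic, and a 95% interval is 1.96 errors either way. For Apoa1, Alb, Afp and Ttr the test statistic has the opposite sign to the fold change, and only its size was used. The direction of q2 over q1 was not checked against the values per condition. No test beyond the authors' deposited one was run. RefSeq names were matched by span, and positions are those of the deposited table. The Benjamini-Hochberg step was tested on simulated data. Python 3.11.15, numpy 2.4.6, pandas 2.3.3 and matplotlib 3.10.9 were used.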

Additional observations from a re-analysis of the deposited data

How the results depend on the processing

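The count of 0 calls among the members, and of 0 among the flanking transcripts, was the same at a q-value of at most 0.01 or 0.1, with the deposited p-values adjusted over all rows, and with a Bonferroni adjustment over tested rows. These settings bear on 1 tested member only, and the stricter ones could not raise a count of 0. In the authors' deposited test the p-value of Apoa1 was 0.973 and the lowest of the tested flanking transcripts was 0.107, so the count had little room to change. At least 2-fold differences numbered 0 among tested members, 0 at 4-fold, and 1 (Ttr) when rows of every status were counted. Centring on the median of tested transcripts (0.0046) left the sign of Apoa1, Alb, Afp and Ttr as it was. Either transcript of Apoa4 was listed at 0 without an error, so the choice between them could show nothing. No paired analysis was possible because each pool gave 1 library, and for the same reason no replicate could be left out. Pseudocounts and filters on low FPKM were not run, since those columns were not used. Depth is unknown, and 6 of the 7 transcripts were not tested.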
